A study of Mus musculus with 8 samples.

Results

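Crossover maturation genes are described here through 9 members, Mlh3, Msh4, Msh5, Rnf212, Hfm1, Tex11, Ccnb1ip1, Cntd1 and Mus81, chosen by name for their known roles in turning meiotic recombination intermediates into crossovers. All 9 were among the 21058 genes listed, and all 9 were among the 17643 genes tested. RNA was sequenced from fractions enriched for mouse pachytene spermatocytes, the cells in which homologous autosomes are fully synapsed, in 4 Arid1a WT and 4 Arid1a cKO libraries. Both groups carried the floxed Arid1a allele of a line kept on a CD1 background, Arid1a cKO males being Arid1a fl/fl with 1 copy of the Stra8-Cre transgene (Tg/0), and Arid1a WT males being either Arid1a fl/fl or Arid1a fl/+. Stra8-Cre is expressed in spermatogonia, so that ARID1A, a putative DNA-binding subunit of the BAF chromatin remodeler, can be lost before meiosis. Excision is not complete in this model, and some spermatocytes of the cKO testes keep ARID1A. The paper concludes that spermatocytes lacking ARID1A arrest at mid-pachynema, while those that keep it go on to later stages. The part of a difference in substage between the genotypes in the values below was not tested. The spermatocytes were purified by size through sedimentation in a Sta-Put gradient from adult testes that had been pooled. Fractions rich in pachytene spermatocytes were picked by light microscopy, so a share of other cells could remain. The labels call the libraries of a group biological replicates, but whether each came from a separate pool of animals is not given. The p-values measure the spread between these libraries, and not a known spread between animals. Pairs of Arid1a cKO libraries differed by a chi-square per degree of freedom of 1.72 to 3.49, and pairs of Arid1a WT libraries by 4.44 to 18.5.

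Meiotic crossovers arise from programmed double-strand breaks that invade the homologous chromosome. In the main pathway, called class I, MSH4 and MSH5 form a clamp (MutSγ) around the joint molecules, the helicase HFM1 and the scaffold TEX11 belong to the same group of stabilizing factors, and the RING-finger proteins RNF212 and CCNB1IP1 (HEI10) narrow many such sites to a few. CNTD1, a cyclin-like protein that acts with PRR19 and the kinase CDK2, is needed for the final sites, where the endonuclease that contains MLH3 resolves the joint molecules into crossovers during pachynema. MUS81 acts with EME1 in a separate nuclease that makes the minor, class II crossovers.

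The promoters of Mlh3, Ccnb1ip1 and Rnf212 are shown because the first and second had the largest falls among the members and the third, which encodes the other RING-finger protein, changed by the least among the members called. The 250 bases before the first start listed for each gene (GRCm38.p6) were taken, chr12:85270600-85270849 for Mlh3 and chr5:108775028-108775277 for Rnf212. Both begin inside the RefSeq gene, which reaches to 85270647 for Mlh3 and 108775067 for Rnf212. Each printed sequence is the part outside the RefSeq gene and annotated exons. It is read on the strand of the gene, which is the minus strand for these genes. Positions of matches are counted from the start listed, not from the edge of the RefSeq gene. The sequence of Ccnb1ip1 lies inside its GENCODE gene model, chr14:50789248-50807732, which reaches beyond the RefSeq one. Capitals mark matches on either strand to AACNG (the core of the MYB motif), GCGCA, any base and GCGC in a row (an NRF1 motif) or TTCCCGC (an E2F motif).
Mlh3, chr12:85270648-85270849: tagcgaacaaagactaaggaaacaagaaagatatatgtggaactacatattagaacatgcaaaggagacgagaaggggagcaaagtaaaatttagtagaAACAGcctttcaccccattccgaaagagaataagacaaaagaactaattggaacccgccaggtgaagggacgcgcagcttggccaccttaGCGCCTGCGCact
Ccnb1ip1, chr14:50795729-50795978: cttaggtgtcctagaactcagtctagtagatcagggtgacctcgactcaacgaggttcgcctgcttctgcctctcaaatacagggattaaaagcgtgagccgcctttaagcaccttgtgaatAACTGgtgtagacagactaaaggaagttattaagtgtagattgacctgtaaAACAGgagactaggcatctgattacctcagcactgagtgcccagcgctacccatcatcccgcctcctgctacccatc
Rnf212, chr5:108775068-108775277: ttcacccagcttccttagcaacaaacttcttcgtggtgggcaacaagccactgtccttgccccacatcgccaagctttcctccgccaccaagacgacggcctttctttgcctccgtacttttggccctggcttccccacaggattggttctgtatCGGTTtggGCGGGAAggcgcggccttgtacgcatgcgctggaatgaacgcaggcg
The MYB core began 151 bases before the start listed for Mlh3, 128 and 77 bases before that of Ccnb1ip1, and 95 bases before that of Rnf212. The NRF1 match of Mlh3 began 61 bases before the start listed, and the E2F match of Rnf212 began 87 bases before the start listed. None of the capitalized matches overlapped another. A promoter was given for 8 members, Tex11 being the exception. The MYB core occurred in 7 of these 8, all but Hfm1, and in 74.2% of the 32851 mouse promoters of that length, so that it did not set the members apart. The NRF1 motif occurred in Mlh3 and Hfm1 and in 3.74% of all promoters, and the E2F motif occurred in Msh5 and Rnf212 and in 3.82% of all promoters. A STRA8 motif, CNCCTCAG, occurred in Msh5 and Hfm1 and in 6.42% of all promoters, while the cyclic AMP response element TGACGTCA was in none of the 8 members and in 1.55% of all promoters. A match describes the sequence only. Mybl1, which encodes the MYB-family factor A-MYB of pachytene spermatocytes and was singled out after its values were seen, had 175 CPM (counts scaled to the library total) in Arid1a WT and 70.7 in Arid1a cKO (log2 fold change -1.30 ± 0.06 SE, adjusted p = 4.53e-11), and its part in the members' changes was not tested.

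The members did not move as a group. Of the 9, 5 were lower in Arid1a cKO (Mlh3, Ccnb1ip1, Cntd1, Hfm1 and Rnf212), 2 were higher (Tex11 and Msh4), and 2 did not pass the test (Msh5 and Mus81), at an adjusted p of 0.05 or less by edgeR's quasi-likelihood test. Across all genes tested, 74% were called, 36.5% higher and 37.5% lower, so that 7 called among 9 members is close to the background. The median log2 fold change of the members was -0.27, beside -0.02 for all genes tested. The CPM of the genotypes did not overlap for 7 of the members, against 68.9% of all genes. Sizes ranged from a 4.86-fold fall of Mlh3 to a 3.28-fold rise of Tex11. Levels below are CPM after scaling of the libraries unless TPM, which also divides by transcript length, is named, and means are given ± SD over 4 libraries.

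**Figure D1:**
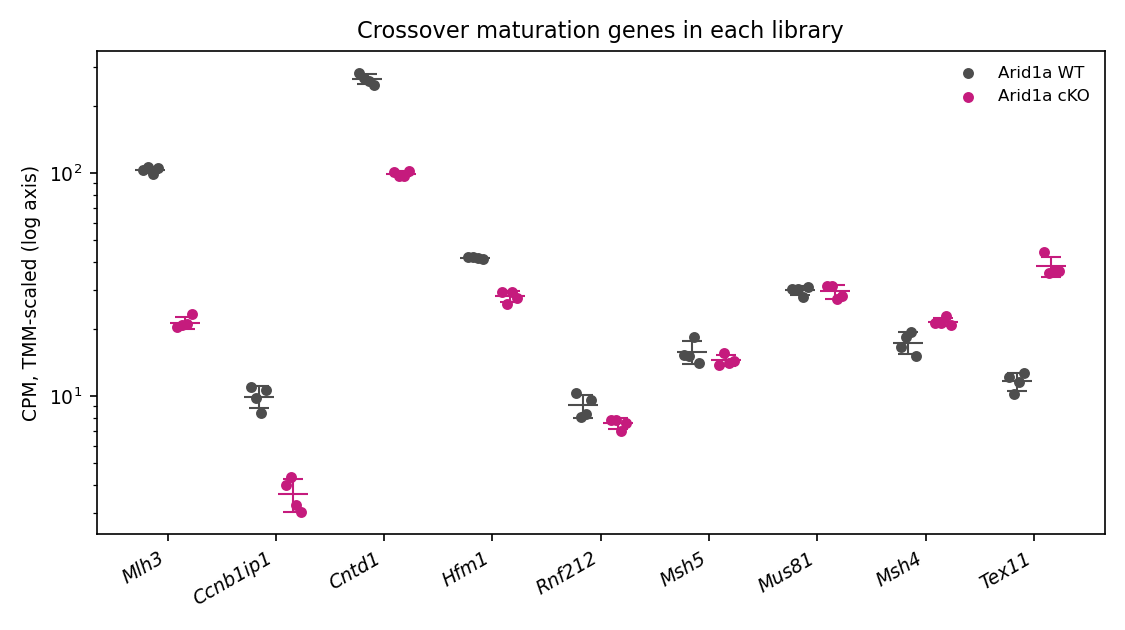
CPM (log axis) of each member in each library, with Arid1a WT in grey and Arid1a cKO in pink, the long bar at the mean and the short bars at 1 SD on either side. Mlh3, Ccnb1ip1, Cntd1 and Hfm1 sit lower and Tex11 sits higher in all 4 Arid1a cKO libraries, while the libraries of Msh5 and Mus81 overlap.

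Several facts of the whole series bear on these values. The libraries held 18308621 to 22044353 estimated counts in Arid1a WT and 15850842 to 21626689 in Arid1a cKO. Arid1a itself fell from 113 ± 13.8 to 79.7 ± 2.89 CPM (log2 fold change -0.51 ± 0.07 SE, adjusted p = 2.31e-05), a partial loss that was not called under scaling to meiotic prophase markers (-0.12, adjusted p = 0.277). Markers of other stages and cells differed between the genotypes. Of 14 meiotic prophase markers, 4 rose, 8 fell and 2 were not called, their summed level being 12626 to 14458 CPM in Arid1a WT and 10348 to 10711 in Arid1a cKO, with Ldhc the most abundant (log2 fold change -0.19). All 14 spermatid markers rose, from a summed 1943 to 2144 CPM to 9086 to 9316, with Prm2 the most abundant (log2 fold change 2.10). Of 9 leptotene and zygotene markers, 7 rose and 1 fell, with summed levels of 188 to 281 and 240 to 251 CPM, Rec8 (2.50) being the most abundant by the mean of both genotypes and Spo11 (-2.68) nearly as abundant. Of 10 spermatogonial markers, 8 rose and 1 fell, with summed levels of 191 to 195 and 174 to 183 CPM, and Id4 the most abundant (-2.65). The 7 tested of 8 Sertoli cell markers fell, from 513 to 580 CPM to 149 to 156, with Clu the most abundant (-1.99). Of 6 Leydig cell markers 5 fell, from 56.6 to 60.2 CPM to 8.11 to 8.61, with Cyp17a1 the most abundant (-3.41). Of the 7 macrophage and blood markers tested, 5 rose and 1 fell, at 5.12 to 6.19 and 11.4 to 14.02 CPM in sum, with Adgre1 the most abundant (1.70). Means under 1 CPM were those of Cyp11a1 and Hsd3b1 of Leydig cells (0.971 and 0.717) and of Cd68 and Hba-a1 of macrophages and blood (0.585 and 0.191) in Arid1a cKO, and in Arid1a WT those of Mei4 (0.812), a leptotene and zygotene marker that rose, Nanos3 of spermatogonia (0.894) and 5 of the macrophage and blood markers. None of the tested markers was at 0 in any library, and Rhox5 of the Sertoli list did not pass the filter on low counts. The part of these markers in the members' changes was not tested, and in bulk RNA fewer cells of a type and less RNA per cell cannot be told apart.

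MutSγ and the factors that stabilize joint molecules gave values in both directions. Msh4 (chr3:153857141-153906138, GRCm38, as all gene coordinates here) had 16.7, 18.4, 19.5 and 15.1 CPM in the Arid1a WT libraries and 21.4, 21.2, 22.8 and 20.9 CPM in the Arid1a cKO libraries. The highest Arid1a WT library lay below every Arid1a cKO library. The mean rose from 17.4 ± 1.92 to 21.6 ± 0.855 CPM, 1.24-fold (log2 fold change 0.31 ± 0.08 SE, adjusted p = 0.00262). Without TMM factors the call was lost (0.21, adjusted p = 0.0603). Its partner Msh5 (chr17:35028605-35046997) had 15.4, 15.1, 18.4 and 14.1 CPM in Arid1a WT and 13.8, 15.6, 14.2 and 14.4 CPM in Arid1a cKO. The genotypes overlapped, at means of 15.8 ± 1.85 and 14.5 ± 0.791 CPM, and Msh5 was not called (-0.12 ± 0.09 SE, adjusted p = 0.228). The ratio of Msh4 to Msh5 TPM was 0.928 ± 0.0914 in Arid1a WT and 1.35 ± 0.194 in Arid1a cKO, without overlap.

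Hfm1 (chr5:106840193-106926712), which encodes the helicase that unwinds early joint molecules, had 42.0, 42.3, 41.6 and 41.2 CPM in Arid1a WT and 29.4, 25.8, 29.3 and 27.6 CPM in Arid1a cKO. The Arid1a WT libraries lay within a narrow band well above the others. The mean fell from 41.8 ± 0.485 to 28.1 ± 1.71 CPM, 1.49-fold (log2 fold change -0.57 ± 0.06 SE, adjusted p = 2.96e-07). Under scaling to meiotic prophase markers the fall was smaller (-0.18, adjusted p = 0.0206).

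Tex11 (chrX:100838648-101059639), an X-linked gene whose loss can cause meiotic arrest in males, had 12.2, 10.2, 11.6 and 12.7 CPM in Arid1a WT and 44.2, 35.9, 36.6 and 36.4 CPM in Arid1a cKO. Arid1a cKO replicate 1 was the highest, and the lowest Arid1a cKO library was still well above every Arid1a WT library. The mean rose from 11.7 ± 1.08 to 38.3 ± 3.97 CPM, 3.28-fold (log2 fold change 1.71 ± 0.09 SE, adjusted p = 1.78e-10), and 87.7% of all genes tested had a lower log2 fold change. The X chromosome is silenced in pachynema by meiotic sex chromosome inactivation, and of its 799 tested genes 532 (66.6%) were called higher, with a median log2 fold change of 1.32. Among these, 58.4% had a lower log2 fold change than Tex11, which puts it near the middle of the X-linked genes. Its autosomal partner Shoc1 fell (log2 fold change -0.37 ± 0.06 SE, adjusted p = 9.74e-05), though not under scaling to meiotic prophase markers (0.02, adjusted p = 0.841), and the ratio of Tex11 to Shoc1 TPM went from 0.602 ± 0.0935 to 2.35 ± 0.195.

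The RING-finger pair fell by different amounts. Ccnb1ip1 (chr14:50789249-50795728) had 11.0, 9.79, 8.43 and 10.6 CPM in Arid1a WT and 3.98, 4.34, 3.25 and 3.02 CPM in Arid1a cKO. Every Arid1a cKO library was far below the lowest Arid1a WT library. The mean fell from 9.96 ± 1.14 to 3.65 ± 0.616 CPM, 2.73-fold (log2 fold change -1.45 ± 0.13 SE, adjusted p = 1.03e-07), on estimated counts of 47 to 234 per library. Its SE was the largest of the members. Of its 31-base words, 12.4% also occur in transcripts of other genes, most of them in Rpph1, which overlaps it on the same strand.

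Rnf212 (chr5:108728105-108775067) had 10.3, 8.09, 8.33 and 9.64 CPM in Arid1a WT and 7.86, 7.82, 6.99 and 7.58 CPM in Arid1a cKO. The genotypes did not overlap, but the gap between the lowest Arid1a WT and the highest Arid1a cKO library was narrow. The mean fell from 9.10 ± 1.07 to 7.56 ± 0.403 CPM, 1.20-fold (log2 fold change -0.27 ± 0.10 SE, adjusted p = 0.024). The call was lost without Arid1a WT replicate 1 (adjusted p = 0.0875), Arid1a WT replicate 4 (0.0668) or Arid1a cKO replicate 3 (0.0781), and with DESeq2 (0.096). Its sign turned under scaling to meiotic prophase markers, where Rnf212 was not called (0.12, adjusted p = 0.244). The ratio of Rnf212 to Ccnb1ip1 TPM was 1.40 ± 0.129 in Arid1a WT and 3.01 ± 0.726 in Arid1a cKO, without overlap. An antisense gene, 1700047L14Rik, overlaps 5073 bases of Rnf212, and whether strand was used in the counting is not given in the sources used here.

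Cntd1 (chr11:101279203-101288701) was the most abundant member. It had 282, 267, 259 and 249.9 CPM in Arid1a WT and 102, 97.5, 97.1 and 102 CPM in Arid1a cKO. The genotypes were far apart, with little spread within either. The mean fell from 265 ± 13.9 to 99.6 ± 2.70 CPM, 2.66-fold (log2 fold change -1.41 ± 0.05 SE, adjusted p = 3.94e-12). Becn1, an autophagy gene on the opposite strand, overlaps 10366 bases of the GENCODE gene model of Cntd1, which reaches beyond the RefSeq one. Of the 31-base words in the coding transcript of Cntd1, 58.1% also occur in Becn1 when strand is ignored, and 0.0434% occur in any other gene on the same strand. Becn1 fell from 132 ± 9.34 to 101 ± 3.08 CPM (log2 fold change -0.39 ± 0.06 SE, adjusted p = 1.76e-05), a smaller fall than that of Cntd1. If strand was not used, the reads of the shared stretch cannot be told apart.

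Both known partners of CNTD1 fell with it. Cdk2 went from 154 ± 4.57 to 26.6 ± 1.31 CPM (log2 fold change -2.53 ± 0.05 SE, adjusted p = 4.78e-14), and Prr19 had a log2 fold change of -0.44 ± 0.05 SE (adjusted p = 3.68e-06). Under scaling to meiotic prophase markers Cdk2 stayed lower (-2.15), and Prr19 was not called (-0.05, adjusted p = 0.340). The ratio of Cntd1 to Prr19 TPM was 1.51 ± 0.118 in Arid1a WT and 0.774 ± 0.0409 in Arid1a cKO. The ratio of Cntd1 to Cdk2 TPM went the other way, from 1.57 ± 0.076 to 3.12 ± 0.330. The Cntd1 transcript thus fell by more than that of Prr19 and by less than that of Cdk2.

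Mlh3 (chr12:85234466-85270647) had the largest change of the members. It had 103, 107, 99.3 and 106 CPM in Arid1a WT and 20.5, 20.8, 21.0 and 23.3 CPM in Arid1a cKO. The replicates of each genotype agreed closely and the genotypes were far apart. The mean fell from 104 ± 3.32 to 21.4 ± 1.31 CPM, 4.86-fold (log2 fold change -2.28 ± 0.06 SE, adjusted p = 8.28e-14), and 1.88% of all genes tested had a lower log2 fold change.

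The call of Mus81 (chr19:5482561-5488389) depended on how transcript length was treated and on the scaling. It had 30.2, 30.2, 27.9 and 30.98 CPM in Arid1a WT and 31.4, 31.3, 27.2 and 28.3 CPM in Arid1a cKO. The genotypes overlapped fully, at means of 29.8 ± 1.34 and 29.5 ± 2.15 CPM, and Mus81 was not called on counts (log2 fold change -0.01 ± 0.06 SE, adjusted p = 0.847). In TPM it had 31.8, 33.4, 36.2 and 29.1 in Arid1a WT and 24.6, 26.1, 23.4 and 22.6 in Arid1a cKO, without overlap. With offsets for average transcript length, edgeR called it lower (-0.33, adjusted p = 0.00161), and under scaling to meiotic prophase markers it was called higher (0.38, adjusted p = 9.79e-05). Its partner Eme1 fell from 9.49 ± 0.826 to 2.80 ± 0.287 CPM (-1.76 ± 0.11 SE, adjusted p = 2.59e-09), and the ratio of Mus81 to Eme1 TPM rose from 4.93 ± 0.318 to 11.9 ± 1.51. Of the 31-base words in its coding transcripts, 11% also occur in another gene, Gm48985.

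**Figure D2:**
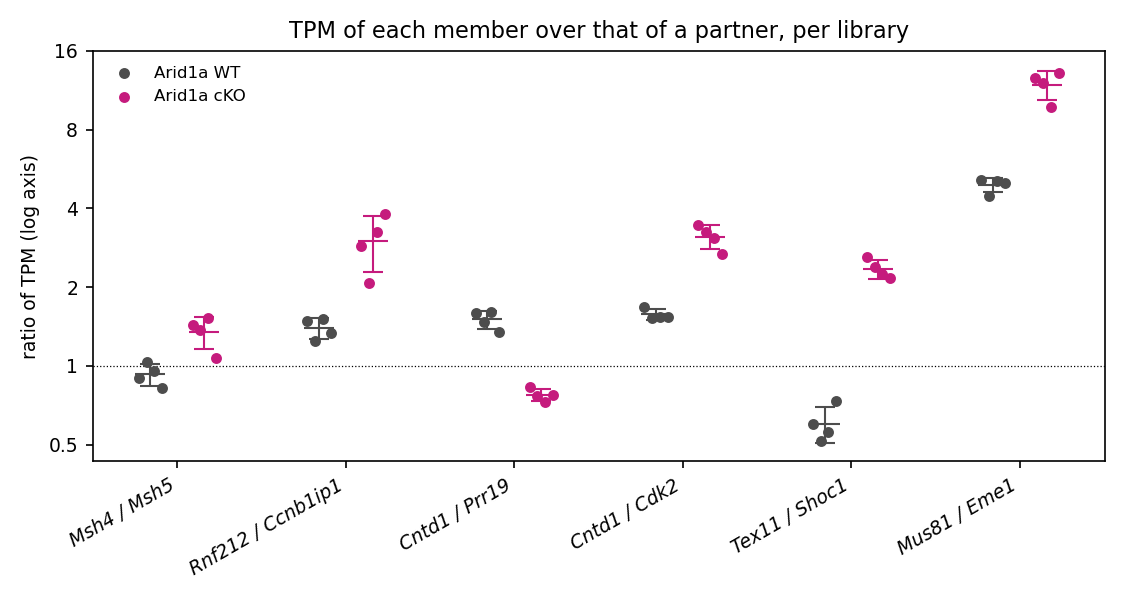
Ratio of the TPM of a member to that of a partner (log axis) in each library, Arid1a WT in grey and Arid1a cKO in pink, with the mean and 1 SD as bars and the dotted line at equal TPM. No pair drawn overlaps between genotypes, Cntd1 to Prr19 being lower and the other 5 pairs higher in Arid1a cKO. The share of other gene pairs without overlap was not computed, and 64.8% of single genes did not overlap in TPM.

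The 6 ratios are descriptions of pairs singled out after the members' values were known. How often the ratios of other gene pairs do not overlap was not computed, so their lack of overlap does not set these pairs apart. Of the members, 8 had TPM values that did not overlap between genotypes, all but Msh5, against 64.8% of all genes. Per transcript length, Cntd1 led in Arid1a WT at 178 ± 8.74 TPM. Mus81 (32.6 ± 2.96) and Mlh3 (30.7 ± 1.87) followed and overlapped each other. Rnf212 (15.8 ± 1.54) overlapped Hfm1 (14.1 ± 1.24), and Ccnb1ip1 (11.4 ± 1.08), Msh5 (10.4 ± 1.12) and Msh4 (9.70 ± 1.64) overlapped their neighbours. Tex11 was lowest, at 5.43 ± 0.388 TPM. In Arid1a cKO, Cntd1 still led at 61.5 ± 1.30 TPM, above Mus81 (24.2 ± 1.51) and Tex11 (16.1 ± 1.51), which had moved from the last place to the third. Rnf212 (12.2 ± 0.476) overlapped Msh4 (12.1 ± 0.622), and Hfm1 (9.58 ± 1.06) overlapped Msh5 (9.08 ± 1.40). Mlh3 (5.64 ± 0.361) and Ccnb1ip1 (4.28 ± 1.30) were lowest and overlapped each other.

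The average transcript length behind each count was recovered as the ratio of counts to TPM and centred on each library's median. Relative to the Arid1a WT mean, that of Mus81 was 0.877 to 1.13 in Arid1a WT and 1.22 to 1.31 in Arid1a cKO, a ratio of 1.27, and 91.9% of the 13958 genes compared had a smaller difference. The exact 2-sided permutation test gave p = 0.0286, the smallest that 4 against 4 libraries allow, and an adjusted p of 0.0578. No gene passed an adjusted p of 0.05 here (0%), while 6905 (49.5%) did not overlap and had an unadjusted p under 0.05. Among the members 5 did not overlap, close to that background. Besides Mus81 these were Mlh3 (ratio 1.06), Tex11 (1.05), Cntd1 (1.04) and Msh4 (0.942). The others overlapped, with ratios of 1.03 for Rnf212 (exact p = 0.0571), 0.941 for Hfm1 (0.257), 0.946 for Ccnb1ip1 (0.743) and 1.01 for Msh5 (0.857).

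**Figure D3:**
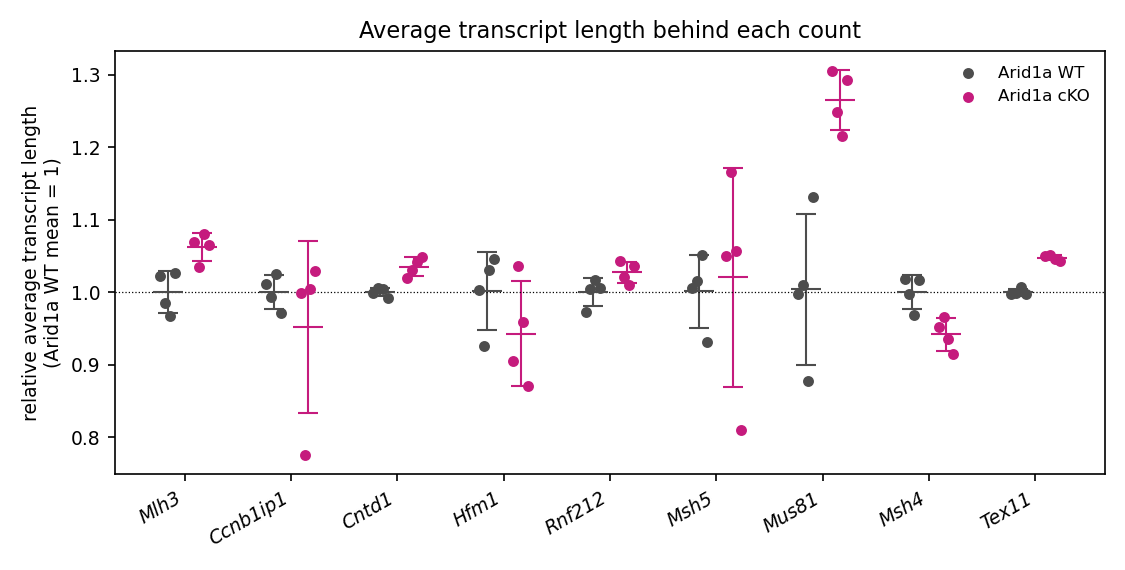
Average transcript length behind the counts of each member in each library, relative to the Arid1a WT mean, with Arid1a WT in grey, Arid1a cKO in pink and bars at the mean and 1 SD. Mus81 lies at 1.22 to 1.31 in Arid1a cKO and at 0.877 to 1.13 in Arid1a WT, while the other members stay close to 1 or overlap.

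The other genes of the pathway were taken as 23 genes in lists, of which 22 were tested (Spo16 was not matched by its symbol). Of these, 6 rose, 13 fell and 3 were not called, with a median log2 fold change of -0.39, beside -0.02 for all genes, of which 36.5% were called higher and 37.5% lower. Scaling to meiotic prophase markers gave 10 higher and 8 lower. Among 6 class I partners, 2 rose and 4 fell. Cdk2 had the largest change of these, and Rnf212b, a relative of Rnf212, rose from 1.75 to 3.94 CPM (log2 fold change 1.17 ± 0.17 SE). Exo1, which encodes an exonuclease with a structural role in crossover resolution, fell from 20.96 ± 1.30 to 14.02 ± 1.13 CPM (-0.58 ± 0.07 SE). Exo1 was not called with transcript length offsets in edgeR (0.04, adjusted p = 0.742) nor under scaling to prophase markers (-0.19, adjusted p = 0.0612).

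Of the 5 partners of structure-specific nucleases, 1 rose, 3 fell and 1 was not called. Eme1 fell, and Eme2, which encodes the alternative partner of MUS81, fell from 21.0 ± 1.63 to 6.38 ± 0.345 CPM (-1.72 ± 0.08 SE). Gen1, a Holliday junction resolvase, rose from 8.88 ± 1.85 to 12.8 ± 0.880 CPM (0.53 ± 0.12 SE). The transcripts of both MUS81 partners were thus lower where the count of Mus81 itself was not called different.

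Of the 6 genes for dissolution and for helicases that limit crossovers, 4 fell and 2 were not called. Top3a, the topoisomerase of the BLM dissolution complex, fell from 61.6 ± 1.57 to 23.1 ± 1.83 CPM (-1.42 ± 0.06 SE). Rtel1, a helicase that takes apart displacement loops, fell from 92.6 to 38.3 CPM (-1.27 ± 0.05 SE). Fancm fell from 21.2 ± 1.32 to 12.3 ± 0.542 CPM (-0.78 ± 0.07 SE). Blm (-0.05, adjusted p = 0.383) and Rmi2 (0.06, adjusted p = 0.588) were not called, though edgeR called Blm lower with transcript length offsets (-0.20, adjusted p = 0.0192). Under scaling to meiotic prophase markers both were called higher, Blm at 0.34 (adjusted p = 1.42e-05) and Rmi2 at 0.44 (adjusted p = 0.00436).

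Of the 5 mismatch repair relatives of MSH4, MSH5 and MLH3, 3 rose and 2 fell. Pms1, a MutL homolog, rose from 2.97 ± 0.197 to 6.12 ± 0.266 CPM (1.04 ± 0.11 SE). Msh3, which recognizes larger loops, fell from 79.3 to 40.7 CPM (-0.96 ± 0.06 SE).

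**Figure D4:**
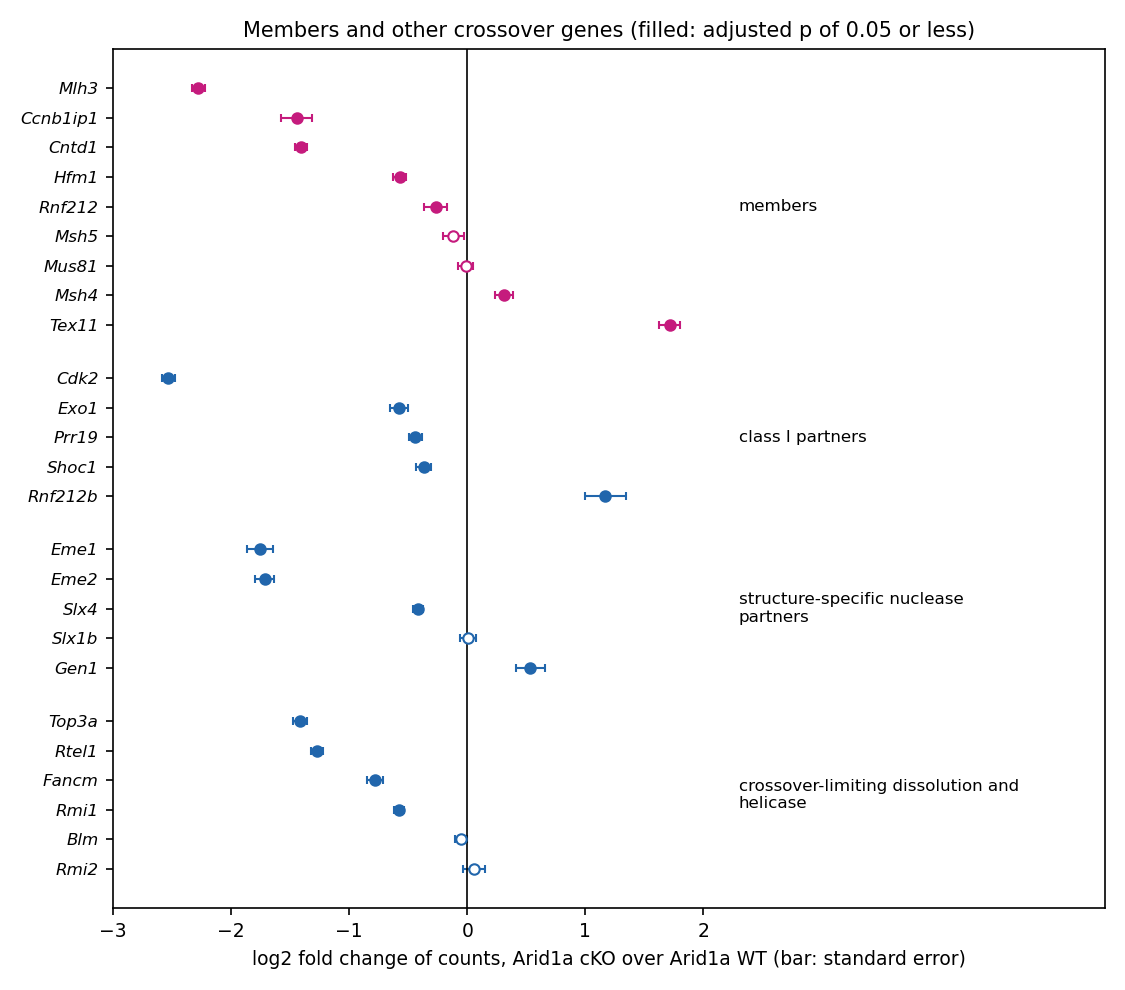
Log2 fold change of counts, Arid1a cKO over Arid1a WT, for the 9 members (pink) and 16 other crossover genes (blue), with the SE as a bar and open circles for genes not called. Both directions occur among the members, from Mlh3 at -2.28 to Tex11 at 1.71, and most of the other genes lie below 0.

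The genes most like the members at either end were sought by Pearson's r of log2 CPM over the 8 libraries among 12996 genes. For Tex11 these were Pde1a (r = 0.999, log2 fold change 2.15), Plbd1 (r = 0.999, 1.68) and Slc36a3 (r = 0.999, 1.51), all autosomal. For Mlh3 they were Natd1 (r = 0.9997, log2 fold change -1.59), Ttc5 (r = 0.9996, -2.26) and Unc50 (r = 0.9995, -2.30). These correlations rest on the difference between the genotypes, and 1065 and 1262 genes had an r over 0.99 with Tex11 and Mlh3.

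**Figure D5:**
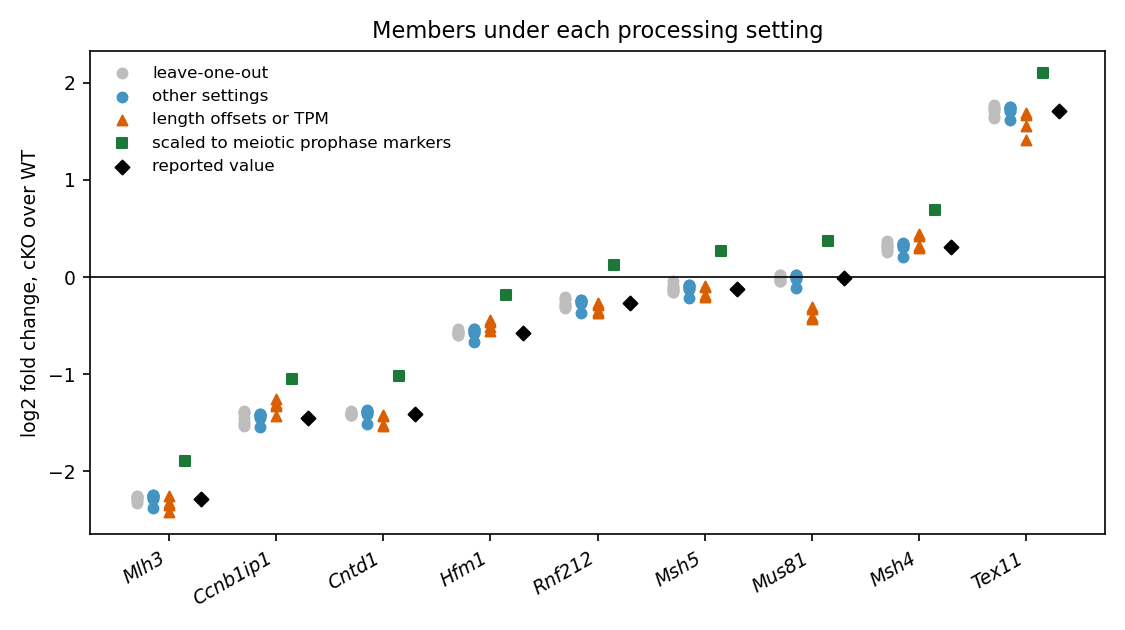
Log2 fold change of each member under the reported setting (black diamond), leaving out each library (grey), other settings (blue), transcript length offsets or TPM (orange) and scaling to meiotic prophase markers (green). Mlh3, Ccnb1ip1, Cntd1, Hfm1, Msh4 and Tex11 keep their side of 0 under every setting drawn, while Rnf212, Msh5 and Mus81 change sign under the scaling to prophase markers.

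Scaling to equal summed counts of the meiotic prophase markers moved the median log2 fold change of all genes from -0.02 to 0.37, and the share of calls that were higher from 49.3% to 67.2%. Rnf212 was then at 0.12 (adjusted p = 0.244), Msh5 at 0.27 (adjusted p = 0.0541) and Mus81 at 0.38 (adjusted p = 9.79e-05). The 14 prophase markers did not move alike, as 4 rose, 8 fell and 2 were not called. Piwil1 fell from 1597 to 109 CPM and Sycp2 from 1004 to 317 CPM, while Mael rose from 1219 to 1577 CPM. How far the scaling depends on single markers was not tested.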

How the data were processed

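Pachytene spermatocytes of both genotypes gave 4 poly(A) RNA libraries each, and groups were read from the labels. The authors quantified transcripts with Salmon against mm10 and summed them to genes with tximport, and deposited estimated counts and TPM per library. The authors' own table of fold changes and p-values was not used. Rows for 21058 genes were used, 21036 of them with a RefSeq record, and no other per-sample column was present. Estimated counts were rounded and tested with edgeR 4.0.16 (quasi-likelihood test, TMM scaling, at least 10 counts summed over the libraries, Benjamini-Hochberg adjusted p of 0.05 or less over all genes). CPM was computed after TMM scaling, with a prior count of 2 for log2 CPM. DESeq2 1.42.0 and limma 3.58.1 (on log2(TPM + 1) and log2(TPM + 0.1)) were alternatives, besides other scalings, filters, length offsets, a replicate block and leaving out each library. The genes listed held 78.1% to 81.1% of the TPM in Arid1a WT and 88.1% to 88.6% in Arid1a cKO. On counts simulated with the mean levels and dispersions of these libraries, edgeR recovered 94% of 200 genes changed 2-fold among 17519, with 5.53% false calls. In the data 74% of genes were called, so the simulation does not give the error rate where most genes change. Depth was 15850842 to 22044353 estimated counts, and the common biological coefficient of variation was 0.0709. Average transcript length, the ratio of counts to TPM, was compared with an exact permutation test over 70 assignments. The members and lists were chosen with earlier results of these data known. Named were all members, Arid1a, up to 3 called genes per pathway list with the largest absolute log2 fold change and an average log2 CPM of 1 or more, the 3 genes most like the members with the largest rise and fall, and the most abundant gene of each marker list. Some items are not reported here. Partner genes, overlapping genes, Mybl1, Piwil1, Sycp2 and Mael were named after values were seen. Promoters and gene coordinates are from RefSeq (GRCm38.p6), and overlaps and 31-base words are from GENCODE transcripts of the same assembly.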

Additional observations from a re-analysis of the deposited data

Results flagged for a closer look

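In 6 of 54 sets of 4 libraries examined for the members (CPM, TPM and relative transcript length by genotype), 1 library lay far from the other 3. The gap to the nearest library is given as a share of the whole range, and about 1 in 20 sets, here 2.7, would do so by chance. Tex11 was high in Arid1a cKO replicate 1, at 44.19 CPM beside 35.85 to 36.61 (share 0.91) and at 18.37 TPM beside 15.12 to 15.62 (share 0.8478). Msh5 was high in Arid1a cKO replicate 4 in TPM, at 11.16 beside 8.176 to 8.503 (share 0.8906). Cntd1 was low in Arid1a WT replicate 4 in TPM, at 165.3 beside 181 to 183.7 (share 0.8522). In relative transcript length, Tex11 was high in Arid1a WT replicate 3, at 1.007 beside 0.9968 to 0.9985 (share 0.8332), and Ccnb1ip1 was low in Arid1a cKO replicate 2, at 0.7754 beside 0.9993 to 1.029 (share 0.8812).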

How the results depend on the processing

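Of 198 log2 fold changes of members under alternatives, 176 kept their direction and side of the threshold. Of 81 relative transcript lengths under alternatives, 5 changed sign, all on leaving out 1 library, for Msh5 (0.017 as reported, -0.052 to -0.0015 where it changed) and Ccnb1ip1 (-0.08 as reported, 0.016 without Arid1a cKO replicate 2). Msh4 lost its call without TMM (0.21), which left 1 member called higher. Rnf212 lost its call with DESeq2 (-0.24), with DESeq2 and length offsets (-0.27) and at an adjusted p of 0.01 (-0.27, adjusted p = 0.024). Scaling to prophase markers reversed Rnf212 (0.12), Msh5 (0.27) and Mus81 (0.38) and gave 10 pathway genes higher and 8 lower. Mus81 was called lower with length offsets in edgeR (-0.33) and DESeq2 (-0.31) and with limma on log2(TPM + 1) (-0.42) and log2(TPM + 0.1) (-0.43). Its value on counts, near 0, turned positive with DESeq2 (0.014), DESeq2 size factors (0.014), TMM from autosomal genes (0.020), filterByExpr (0.0070) and at least 10 counts in every library (0.021). Leaving out each library in turn gave -0.045 to 0.026 for Mus81 (0.018 without Arid1a WT replicate 4, 0.026 without Arid1a cKO replicate 3 and 0.0050 without Arid1a cKO replicate 4), -0.32 to -0.20 for Rnf212, -2.32 to -2.26 for Mlh3, 0.26 to 0.37 for Msh4, -0.16 to -0.04 for Msh5, -0.60 to -0.53 for Hfm1, 1.64 to 1.77 for Tex11, -1.54 to -1.37 for Ccnb1ip1 and -1.42 to -1.38 for Cntd1. It gave 2 members higher and 4 to 5 lower, and 5 to 6 pathway genes higher and 13 lower. With the replicate number as a block, no member changed its call (2 higher and 5 lower, Rnf212 at -0.26, adjusted p = 0.025). Same-numbered libraries correlated at 0.202, 0.042, 0.0944 and -0.0917, and only replicate 1 correlated best with its own number, so that the numbers were not taken to pair the libraries. Where a value changed, the cause was not tested. Ccnb1ip1 had the fewest counts of the members, 47 to 234 a library.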
